A study of Oncorhynchus mykiss with 6 samples.

Results

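The miR-15 and miR-16 family was followed in dorsal skin of rainbow trout through every entry of the deposited miRNA table whose name, without its final letter, is miR-15, miR-16, miR-195, miR-457 or miR-497. The rule found 12 of 1939 entries: 3 named miR-15, 2 miR-16, 3 miR-195, 2 miR-457 and 2 miR-497. The 6 small RNA libraries are 3 from yellow mutant fish with yellow skin (YR) and 3 from wild-type fish with black skin (WR), all sampled at 45 days. The labels name no mutated gene, do not say how many fish gave a library and do not say that the libraries of a group came from separate fish, so the spread between them may be technical. The letter x marks entries read here as 5p arms and y those read as 3p arms, while z carries no stated arm. The family was selected on the ratio of miR-15-x to miR-15-y, which had been seen to differ between these same libraries. Differences between YR and WR are therefore given below as descriptions, with no p-value for any member.

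A miRNA is cut from a hairpin as a short duplex, of which usually 1 strand is kept and guides silencing through its seed, bases 2 to 8. Members of the miR-15 and miR-16 family share most of this seed on their 5p strand and, in mammals, lower the anti-apoptotic protein BCL2 and cyclins of the cell cycle. In humans the pair of genes for miR-15 and miR-16 is often deleted in chronic lymphocytic leukaemia. In mammals miR-195 and miR-497 come from 1 cluster, and miR-457 is a member first named in zebrafish.

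The sequences below are those the deposited table lists for the 5p-like entries, with bases 2 to 8 in capitals, because these letters decide which entries share a seed.
miR-16-x: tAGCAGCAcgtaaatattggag
miR-15-x: tAGCAGCGcatcatggtttga
miR-457-z: tAGCAGCAcatcattactggta
miR-195-x: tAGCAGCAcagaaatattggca
miR-15-z: tAGCAGCAcggaatggtttgt
miR-497-x: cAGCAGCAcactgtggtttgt
miR-195-z: tAGCAGCActtaaatattggc
The seed of miR-16-x was also that of miR-457-z, miR-195-x, miR-15-z, miR-497-x and miR-195-z, so that all 3 z entries carry a 5p-like sequence. The seed of miR-15-x differed from it by A8G, given as the base of miR-16-x, the position from the 5′ end and the base of miR-15-x. In the first 8 bases miR-497-x differed from miR-16-x by T1C, outside the seed. Among all entries listed, 8, or 0.413%, had the seed of miR-16-x, 6 of them members. The other 2 were miR-424-x, with 39 reads in the 6 libraries together, and miR-322-x, with 6 reads. The seed of miR-15-x was found in miR-503-x, with 22 reads, and in 1 predicted miRNA, with 37 reads, whose sequence is that of miR-15-x with a longer 3′ end.

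The 3p strands are shown next with the same bases in capitals, since the results turn on how many reads each had beside its 5p strand.
miR-15-y: cAAATCATgatgtgctgtcact
miR-16-y: tCCAGTATtgctcgtgctgct
miR-457-y: cCAGTATGgcttgtgctgctcca
miR-195-y: cAATATTGgctgtgctgcttca
miR-497-y: tCCAAACCacactgtggtgtt
predicted miRNA: cCAGTATGgcttgtgctgctaac
The members' own 3p strands had 5 different seeds. Folded against each other as RNA, the listed miR-15-x and miR-15-y formed 18 base pairs, and miR-16-x and miR-16-y also formed 18. Set against the partner of the other name, miR-16-x and miR-15-y formed 9 and miR-15-x and miR-16-y formed 12. The last sequence is no member by name, but its first 20 bases are those of miR-457-y, and it was added after its values were seen. It formed 17 base pairs with miR-457-z and 17 with miR-16-x, so the number of pairs does not tell which hairpin it comes from. The calculated energy was -26.4 kcal/mol with miR-457-z and -24.7 kcal/mol with miR-16-x. For miR-457-z with miR-457-y it was -24.8 kcal/mol. The hairpin of the predicted miRNA could not be looked up. No source used here says whether counts of several trout genes were summed under 1 name.

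Library totals ran from 8245698 to 10336991 counts in YR and from 8656356 to 9209869 in WR, so that 1 read was worth 0.101 to 0.127 of the deposited TPM (reads scaled by a library constant of the authors). Log2 fold changes come from edgeR with TMM scaling of the libraries. Over all 834 entries with a mean of at least 1 TPM their median was -0.03, against -0.26 when libraries were scaled by their totals only, so a direction near 0 depends on the scaling. Skin markers were present, with the 10 entries of an epidermal list (miR-203, miR-205, miR-184 and miR-31) summing to 55371 to 69475 TPM in YR and 71448 to 79094 TPM in WR. The 6 entries of a neural list (miR-9 and miR-124) summed to 131 to 253 TPM in YR and 107.4 to 111.9 TPM in WR. The single liver entry, miR-122-x, stood at 5.33 to 12.9 TPM in YR and 38.8 to 51.8 TPM in WR. In deposited TPM these 3 lists did not overlap between the groups, and the other lists, given further below, did. Of all tested entries 28.3% lay apart in TPM. The lists were not compared after TMM scaling, so nothing is read from how these 3 lie apart. Their part in the results below was not tested. WR replicate 1 had the highest TMM factor, 1.19, against 0.841 to 1.08 in the other libraries. Without it edgeR called 118 of the 834 entries, against 44 with it. Without any other single library the count was 1 to 18 (1 without WR replicate 2 and 18 without YR replicate 2), so the share called over all entries is itself unstable. In bulk skin, fewer cells of a type and less RNA per cell cannot be told apart.

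Most of the family's reads were miR-16-x and miR-15-x. Of the 12 entries 9 had a mean of at least 1 TPM and entered the test, with lengths of 21 to 23 bases. TPM here does not depend on length, and how evenly different sequences were captured was not tested, so an order of levels is one of reads. miR-16-x ranked 31 and miR-15-x ranked 47 among the 1939 entries by mean TPM over all libraries. Then came miR-15-y at 76.6 TPM, miR-457-z at 59.4 TPM and miR-16-y at 44.7 TPM. miR-15-y was above miR-457-z in every WR library, whereas the 2 overlapped in YR. Within each library miR-457-z was above miR-16-y, although their ranges over the WR libraries overlapped. Last came miR-195-x at 6.44, miR-15-z at 3.22, miR-497-x at 2.16 and miR-457-y at 1.95 TPM, and these 4 overlapped from library to library. The remaining 3 were close to the limit of detection: miR-195-y had 8 reads, miR-195-z 6 reads and miR-497-y 4 reads in all 6 libraries together. These 3 were left out of the test.

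**Figure D1:**
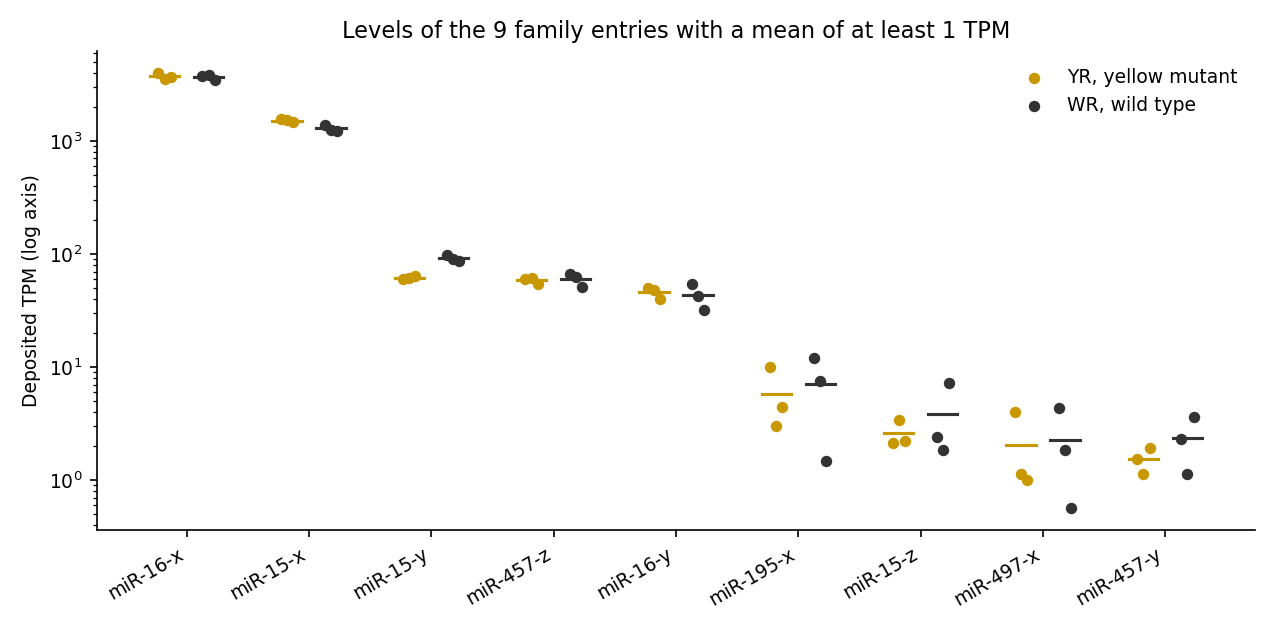
Deposited TPM, on a log axis, of the 9 tested entries in each library, with YR (left of each pair) and WR (right). Short lines are group means. miR-16-x and miR-15-x lie far above the others, and in TPM the groups lie apart only for miR-15-x and miR-15-y. After TMM scaling they also lie apart for miR-16-x, miR-16-y and miR-457-z, where the share over all entries was not taken.

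miR-16-x, the member with the highest level, stood at 4019, 3501 and 3685 TPM in the YR libraries and at 3755, 3791 and 3430 TPM in the WR libraries. The groups overlapped, and the highest library was 1.17 times the lowest. After TMM scaling its log2 fold change was 0.27 (SE 0.11), against 0.03 with library totals alone. In the TMM-scaled values the groups no longer overlapped, at 3665 to 4216 TMM-scaled CPM in YR and 2989 to 3338 in WR. The share of all entries that lay apart after this scaling was not taken, so nothing is read from it.

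miR-15-x stood at 1560, 1519 and 1456 TPM in YR and at 1395, 1258 and 1234 TPM in WR, so that each YR library was above each WR library. Its mean was 1512 ± 52.3 TPM in YR and 1296 ± 87.1 TPM in WR (SD, n = 3 each). The log2 fold change was 0.46 (SE 0.11) after TMM scaling, and 0.22 with library totals alone. It was positive in each of the 16 settings in which it was fitted, from 0.22 to 0.51. These settings reuse the libraries on which the family was chosen, so nothing is read from the constant sign.

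miR-15-y, the 3p strand of the same name, went the opposite way. It stood at 59.7, 61.1 and 63.7 TPM in YR and at 98.6, 90.1 and 86.7 TPM in WR, with all YR libraries below all WR libraries. Its mean was 61.5 ± 2.03 TPM in YR and 91.8 ± 6.12 TPM in WR (SD, n = 3 each). The log2 fold change was -0.33 (SE 0.16) after TMM scaling and -0.58 with library totals alone, and was negative in each of 16 settings. As for miR-15-x, nothing is read from the constant sign.

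miR-16-y, the 3p strand of miR-16, stood at 50.5, 48.2 and 40.1 TPM in YR and at 54.8, 42.7 and 31.8 TPM in WR. The groups overlapped, and WR held both the highest and the lowest library. Its log2 fold change was 0.36 (SE 0.19). miR-457-z stood at 60.6, 61.6 and 53.9 TPM in YR and at 66.5, 62.7 and 51.3 TPM in WR, again with overlap. Its log2 fold change was 0.21 (SE 0.14), and -0.03 with library totals alone. After TMM scaling the groups of both these entries lay apart, with YR the higher, but the share of all entries that did so was not taken.

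Of the 9 tested members 0 passed edgeR's quasi-likelihood test over all 834 entries, in which 5.28% were called, and 0 passed by DESeq2, which called 9.11% of all, or by limma, which called 4.92%. At an unadjusted p under 0.05 there were 2 of 9 members, where 21.7% of all entries were. Groups did not overlap in TPM for miR-15-x, higher in YR, and for miR-15-y, lower in YR. Over all tested entries 8.63% lay apart with YR higher and 19.7% with YR lower. Both shares are for deposited TPM. None was taken after TMM scaling, so nothing is read from the members that lay apart there. In the authors' deposited table none, or 0, of the 12 members had an adjusted p under 0.05, where 4.95% of all entries did. As this contrast chose the family, nothing is read from these counts.

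The 2 strands of miR-15 gave the measure on which the family was picked. There were 26.1, 24.9 and 22.9 counts of miR-15-x per count of miR-15-y in YR, and 14.1, 14.0 and 14.2 in WR. The lowest YR ratio was far above the highest WR ratio. A ratio within a library does not depend on how libraries are scaled. As a share, miR-15-y made up 3.91% ± 0.256 of the counts of both strands in YR and 6.62% ± 0.0606 in WR (SD, n = 3 each). The WR libraries were closer together in this share than in either strand's level. miR-15-y had only 811, 786 and 767 reads there. Its spread was not compared with that of counting reads, so nothing is read from how small it is. On the scale log2((x TPM + 1)/(y TPM + 1)), the mean was 4.60 ± 0.10 in YR and 3.80 ± 0.01 in WR (SD, n = 3 each), a difference of 0.79. Leaving out any 1 library gave differences from 0.75 to 0.85, the lowest without YR replicate 1 and the highest without YR replicate 3. These fits reuse the libraries on which the family was chosen, so nothing is read from the narrow range.

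The same ratio of miR-16 showed no such separation. There were 79.5, 72.6 and 91.8 counts of miR-16-x per count of miR-16-y in YR, and 68.5, 88.9 and 108 in WR. WR held both the lowest and the highest value, and the spread within WR was wider than the difference between the groups. On the log2 scale the mean was 6.31 ± 0.17 in YR and 6.41 ± 0.32 in WR, a difference of -0.10 (SE 0.21; SD, n = 3 each). The difference was 0.05 without WR replicate 3 and -0.27 without WR replicate 1, so its sign rests on 1 library. miR-195 and miR-497 gave no ratio at the level required, because their 3p strands had only 8 and 4 reads.

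**Figure D2:**
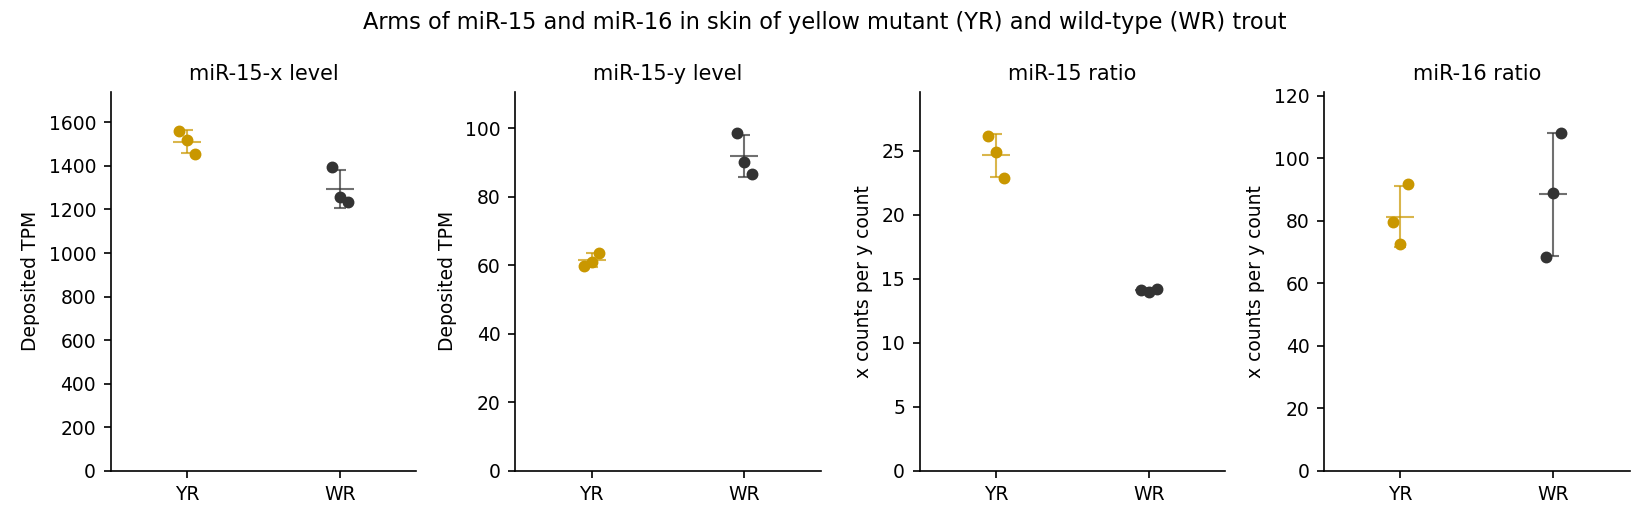
Levels of the 2 strands of miR-15 in deposited TPM, and counts of x per count of y for miR-15 and miR-16, in each library (points) with mean and SD, YR left and WR right. The miR-15 ratio is 22.9 to 26.1 in YR and 14.0 to 14.2 in WR, while the miR-16 ratios of the groups overlap.

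Among the 112 names with both strands at a mean of at least 1 TPM, the miR-15 difference ranked 6 by size, and its spread within groups was the third smallest. The median difference over the 112 was -0.01 and 54 were positive, so x entries did not gain on y entries in general. By limma 0 of the 2 family pairs passed and 1 of all pairs, or 0.893%. Groups did not overlap, with YR higher, in the miR-15 pair, as in 11.6% of all pairs. As the miR-15 ratio chose the family, nothing is read from these counts, nor from the 1 call that other settings gave, among them leaving out WR replicate 1. The names with the nearest differences were miR-132, at 0.76, miR-93, at 0.69, and miR-151, at 0.65. Their spread within groups was 0.35, 0.29 and 0.42 on the log2 scale, against 0.07 for miR-15, and nothing is read from how small the latter is.

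**Figure D3:**
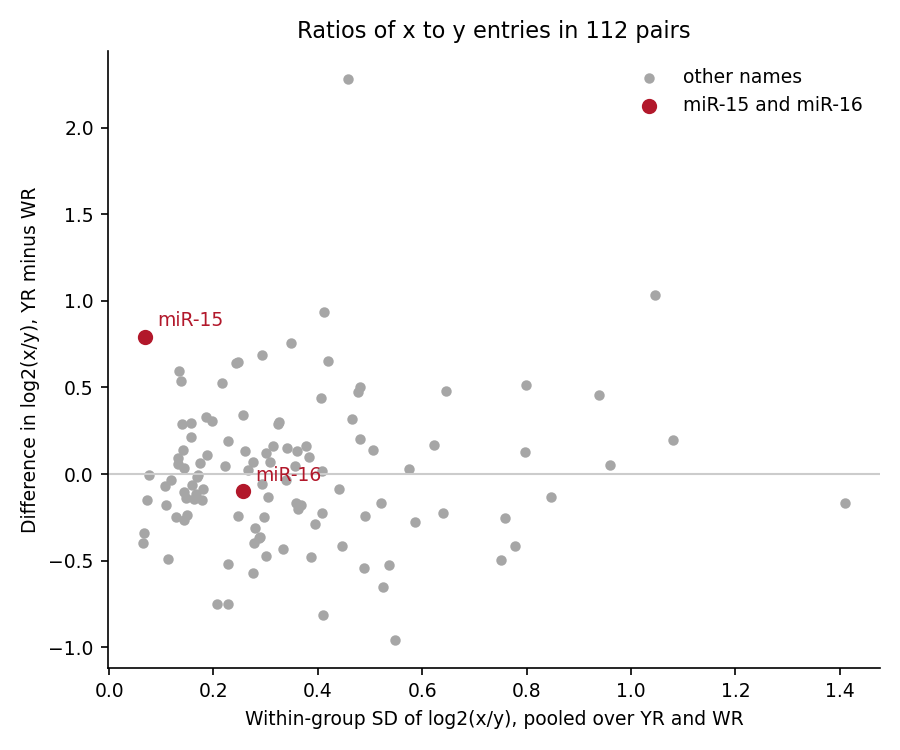
Each point is 1 of 112 names, placed by the SD of log2(x/y) within groups, pooled over YR and WR, and by the difference in mean log2(x/y), YR minus WR. The miR-15 point has a difference of 0.79 at an SD of 0.07, and the miR-16 point a difference of -0.10 at an SD of 0.26.

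A predicted miRNA that resembles miR-457-y also stood lower in every YR library. This sequence, which shares its first 20 bases with miR-457-y, had 379, 432 and 510 reads in YR and 742, 921 and 917 in WR, while miR-457-y itself had 15, 9 and 19 reads in YR and 19, 10 and 32 in WR. In TPM the predicted miRNA stood at 48.4 ± 8.35 in YR and 99.8 ± 8.38 in WR (SD, n = 3 each). All YR libraries lay below all WR libraries in TPM, as in 19.7% of all tested entries. They did so also after TMM scaling, where the share over all entries was not taken. Its log2 fold change was -0.80 (SE 0.25), which edgeR did not call over all entries. It was called by DESeq2, by limma, with library totals alone and without WR replicate 1, and its log2 fold change ran from -1.09 to -0.61 over 14 alternatives. Over all entries DESeq2 called 9.11% and limma 4.92%. Library totals alone gave 30 calls of 834, and the fit without WR replicate 1 gave 118. As the predicted miRNA was named after its values were seen, its calls are a description.

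Beside it, miR-457-z gave 1.56, 1.12 and 1.05 counts per count of the predicted miRNA in YR and 0.737, 0.594 and 0.495 in WR. The groups did not overlap, and the difference of the means, 0.635, stayed between 0.478 and 0.731 without any 1 library. The predicted miRNA was named after its values were seen, and no share of other such ratios was taken. Nothing is therefore read from this separation. Against miR-457-y the counts of miR-457-z gave ratios of 39.3, 53.9 and 28.2 in YR and 28.8, 54.7 and 14.2 in WR, which overlapped. A further predicted miRNA, cCAGTATGgcttgtgctgctcc, is miR-457-y without its last base and had 31, 29 and 19 reads in YR and 36, 28 and 30 in WR, also with overlap. Sequences with the same first 20 bases are thus listed as 3 entries, and the ratio to miR-457-z depends on which is used.

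**Figure D4:**
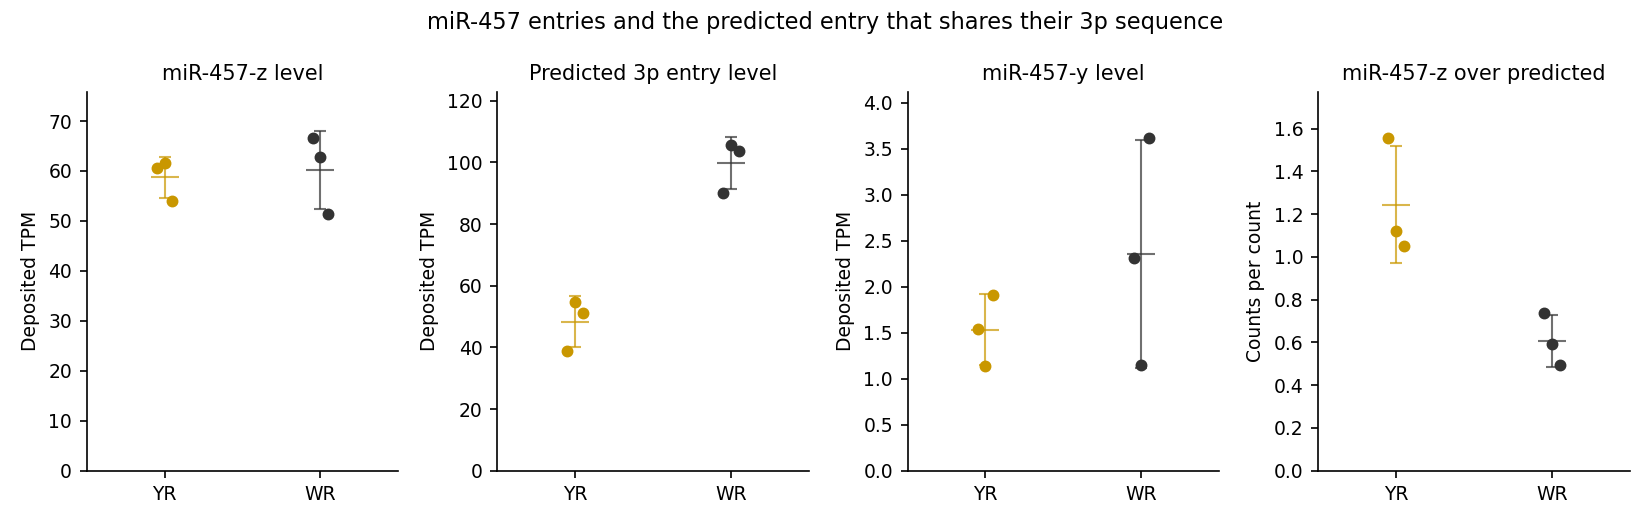
Deposited TPM of miR-457-z, of the predicted miRNA that shares its first 20 bases with miR-457-y, and of miR-457-y, and counts of miR-457-z per count of the predicted miRNA, in each library (points) with mean and SD, YR left and WR right. The predicted miRNA is lower in YR, while miR-457-z and miR-457-y overlap between groups.

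The family as a whole took 0.519% ± 0.0267 of all counts in YR and 0.493% ± 0.0245 in WR (SD, n = 3 each). The libraries ran from 0.497% to 0.548% in YR and from 0.465% to 0.512% in WR, so the groups overlapped. The difference of the means, 0.0256 percentage points, was of the size of the SD within a group, and it was 0.0107 percentage points without YR replicate 1.

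Within the family's counts miR-16-x held 68.8% ± 1.29 in YR and 70.8% ± 1.23 in WR, and miR-15-x 27.9% ± 1.16 in YR and 25.1% ± 1.03 in WR (SD, n = 3 each). There were 2.58, 2.31 and 2.53 counts of miR-16-x per count of miR-15-x in YR and 2.69, 3.01 and 2.78 in WR. Every YR ratio was below every WR ratio. As miR-15-x is a strand of the ratio that chose the family, and no share over other ratios was taken, nothing is read from this order. miR-16-x and miR-15-x differ in seed by A8G, so the entries with the miR-16-x seed made up 70.1% ± 1.25 of the family's counts in YR and 72.3% ± 1.17 in WR. All 3p entries together made up 2.02% ± 0.0929 in YR and 2.66% ± 0.205 in WR (SD, n = 3 each). Of these, miR-15-y, a strand of the ratio that chose the family, made up 1.14% in YR and 1.78% in WR. miR-16-y made up 0.853% in YR and 0.828% in WR. The pooled difference, -0.636 percentage points, thus restates that of miR-15-y, -0.641. The scarce miR-457-y made up 0.0282% in YR and 0.0464% in WR. Mean shares of miR-195-y and miR-497-y, with 8 and 4 reads, were also lower in YR. Whether 3p strands of the family differ in general was not tested.

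In each of the 4 scarce tested members the groups overlapped. miR-195-x stood at 9.96, 3.05 and 4.43 TPM in YR and at 12.2, 7.57 and 1.47 TPM in WR. The highest library was 8.27 times the lowest. miR-497-x stood at 4.01, 1.14 and 1.01 TPM in YR and at 4.38, 1.83 and 0.565 TPM in WR. Both were highest in WR replicate 1 and YR replicate 1, next in WR replicate 2, and lowest in WR replicate 3. Of miR-195-x there were 2.49 to 4.40 counts per count of miR-497-x in YR and 2.60 to 4.13 in WR.

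miR-424-x, which has the seed of miR-16-x and in mammals belongs to the same family, had its most reads in the same 3 libraries, with 13, 2 and 5 in YR and 8, 11 and 0 in WR. The red blood cell list (miR-451, miR-144 and miR-486) summed to 404, 301 and 229 TPM in YR and to 489, 369 and 237 TPM in WR, so these 3 libraries led it too. The pigment cell list (miR-204 and miR-211) summed to 87205, 76572 and 65207 TPM in YR and to 83984, 79333 and 65616 TPM in WR, with the same 3 libraries on top. The white blood cell list (miR-142, miR-150 and miR-223) summed to 1494, 1383 and 1368 TPM in YR and to 1552, 1610 and 1322 TPM in WR, again led by these 3. The remaining lists were not led by these 3. Skeletal muscle (miR-1, miR-133 and miR-206) summed to 24428, 22788 and 13007 TPM in YR and to 20875, 22073 and 17320 TPM in WR. Mesenchyme (miR-199, miR-214 and miR-140) summed to 305686, 342391 and 384505 TPM in YR and to 308613, 303868 and 329074 TPM in WR. The epidermal, neural and liver lists also had other leading libraries. The 3 libraries were picked from the values of miR-195-x and miR-497-x. The share of all entries led by the same 3 was not taken, so nothing is read from the lists they led. The part of any list in the levels of miR-195-x and miR-497-x was not tested. miR-15-z and miR-457-y had another pattern, with their highest value in WR replicate 3, at 7.24 and 3.62 TPM. miR-15-z was at 1.83 to 3.43 TPM in the other 5 libraries.

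**Figure D5:**
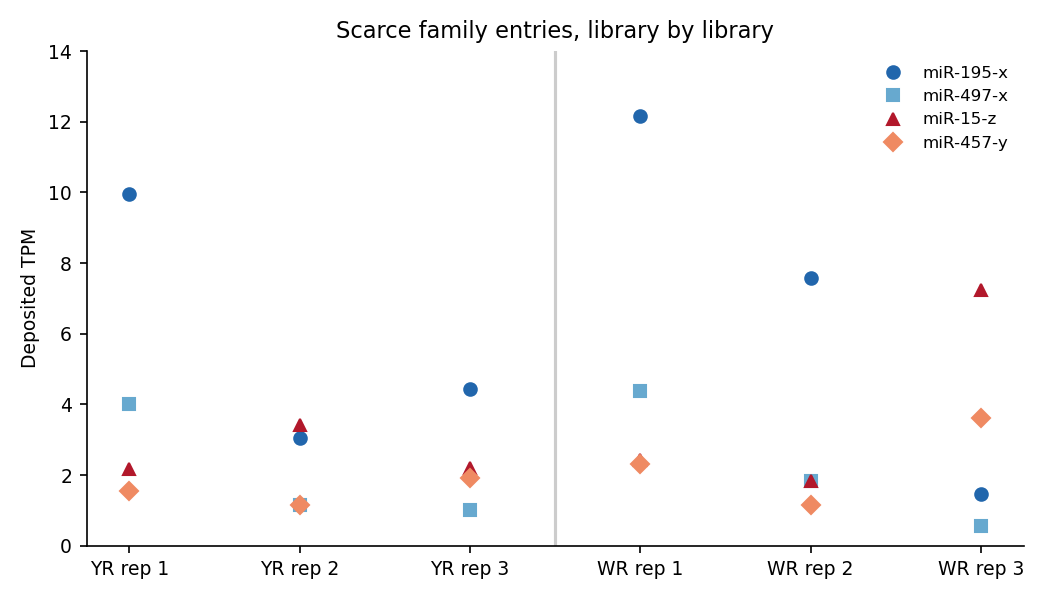
Deposited TPM of the 4 scarce tested entries in each library, YR replicates left of WR replicates. miR-195-x and miR-497-x are highest in WR replicate 1 and YR replicate 1, and miR-15-z and miR-457-y in WR replicate 3.

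For the log2 fold changes of these scarce entries no direction can be given. They were -0.02 (SE 0.72) for miR-195-x, 0.12 (SE 0.76) for miR-497-x, -0.38 (SE 0.63) for miR-15-z and -0.39 (SE 0.52) for miR-457-y. Each changed sign when 1 library was left out. That of miR-15-z was 0.60 without WR replicate 3, and that of miR-457-y 0.17.

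The profiles over the 6 libraries were compared by the root mean square difference of centred log2(TPM + 1) between a member and each of 419 tested known entries outside the family. Nearest to miR-15-x were miR-26-x, with 0.0503, miR-20-y, with 0.0702, and miR-27-z, with 0.0781, where the median entry had 0.431. Nearest to miR-15-y were miR-301-x, with 0.0934, miR-200-x, with 0.0937, and miR-181-y, with 0.105, against a median of 0.481. These 3, like miR-15-y, were lower in every YR library than in every WR library, as were 19.7% of all tested entries. They were picked for likeness over these same libraries, so nothing is read from the shared order. The partner strand miR-15-x, at 0.401, would rank 155 in likeness to miR-15-y. Nearest to miR-16-x were miR-130-y, with 0.0565, miR-152-y, with 0.0565, and miR-10174-y, with 0.0661, against a median of 0.387. For miR-195-x, a search added after its values were seen gave miR-1307-x, with 0.127, miR-7134-y, with 0.187, and miR-450-x, with 0.196. Its mammalian cluster partner miR-497-x was at 0.315 and would rank 11.

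In the wider miR-15 and miR-107 group, the mature strands of miR-103 and miR-107 share part of the miR-16 seed, displaced by 1 base, and are listed here as y and z entries. These 4 entries hold only 2 distinct sequences. Their log2 fold changes ran from 0.09 to 0.18 after TMM scaling, although the mean TPM of each was lower in YR. miR-107-y, the most abundant, stood at 183 ± 10.6 TPM in YR and 196 ± 10.5 TPM in WR (SD, n = 3 each). edgeR called 0 of the 5 tested entries of this group, also 0 before adjustment at p under 0.05. DESeq2, which gave miR-322-y no adjusted p, called 0, and limma called 0. Over all entries these shares were 5.28%, 21.7%, 9.11% and 4.92%, so nothing is read from 0 of 5. The fifth, miR-322-y, had 90 reads in WR replicate 1 and 1 to 5 in each other library.

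Of 30 tested entries of other families known in mammals to act on the cell cycle or on BCL2, 1 rose, 0 fell and 29 did not pass, with 4 at an unadjusted p under 0.05. Over all entries 5.28% were called and 21.7% had an unadjusted p under 0.05, so neither count is above the general rate. Their median log2 fold change was 0.11, against -0.03 over all entries. miR-26-x, which in mammals lowers EZH2, stood at 65745 TPM in YR and 57776 TPM in WR and rose (log2 fold change 0.42; edgeR adjusted p = 0.0409). It lost the call in each of 15 alternatives, and without WR replicate 1 the only call in either list was miR-29-x, which fell. The other 3 most abundant were miR-181-x, at 87322 TPM in YR and 77602 TPM in WR, miR-204-x, at 39747 and 39817 TPM in YR and WR, and let-7-x, at 28167 and 27553 TPM in YR and WR.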

How the data were processed

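Small RNA of dorsal skin was sequenced by the submitters; per the labels' protocols, Trizol RNA was ligated to adapters and read on an Illumina HiSeq Xten. No source used here gives the aligner, the miRNA database or the handling of reads with several matches. The authors deposited 1 table with a whole-number count per miRNA and library, used as it stands. The deposited TPM score is the count over a library constant and sums to 1039890 to 1052570, and a TPM written for a count of 0 was set to 0. The authors' deposited table also holds, for YR over WR, a log2 fold change, p-value and adjusted p-value from a test that it does not name.

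The 834 entries with a mean of 1 TPM or more were fitted together with edgeR 4.0.16 in R 4.3.3 (TMM, quasi-likelihood, no replicate term, Benjamini-Hochberg, threshold 0.05). Ratios of x to y entries were fitted with limma 3.58.1, with no trend, on log2((x TPM + 1)/(y TPM + 1)) in 112 names. DESeq2 1.42.0 and limma on log2(TPM + 1), with a trend, were alternatives for levels. The SE is the log2 fold change over the square root of F. Strands were paired with RNAduplex of ViennaRNA 2.7.2. Replicates of a group differed beyond sampling noise (chi-square per degree of freedom 78.9 to 699), so each library counts once. Members, lists and tests were chosen with earlier results of these data known. Named were all members, entries with the miR-16-x seed, the 3 nearest profiles, the 3 nearest ratio differences, and of the other lists the 4 most abundant or any called.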

Additional observations from a re-analysis of the deposited data

How the results depend on the processing

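Members called remained 0 in all 15 alternatives to the main edgeR fit, among them DESeq2 and limma. Family pairs called by limma were 0 over all libraries and 1, the miR-15 pair, with a pseudocount of 5 TPM, with a mean of at least 10 TPM in both entries, and with a trend in limma, the last chosen after seeing the data (this ratio chose the family, so nothing is read from the call); over single libraries left out the count was 0 to 1, with 1 without WR replicate 1. The difference in family share was 0.126 percentage points, against 0.0256, when the 5 most abundant entries were left out of the total. A smaller total by itself raises every share, so the 2 values are not on the same scale. Any further cause was not tested. Alternatives for the lists of related families were added after seeing the data. There the 1 call became 0 with median-of-ratios factors, library totals alone, DESeq2, limma, no filter, a mean of at least 10 TPM, 1 entry per sequence, known names only and the replicate block, and the count was 0 to 1 without single libraries, where the 1 call, without WR replicate 1, was miR-29-x, which fell, and no longer miR-26-x. The cause was not tested for any of these. For the shares within the family, counting repeated sequences was not run, since no member shares its sequence with another entry. The edgeR fit with 1 entry per sequence called 21 of 691 entries. In it the log2 fold change was 0.32 for miR-15-x, against 0.46, and 0.13 for miR-16-x, against 0.27. Whether libraries of the same number pair was not settled. Their deviations correlated at 0.256, -0.11 and 0.303. YR replicates 1 and 3 correlated best with the WR replicate of the same number, whereas YR replicate 2 correlated best with WR replicate 3. A batch shared by libraries of the same number was not tested. With the replicate block 0 members and 0 family pairs were called, and 2 of 834 entries in place of 44. The 4 scarcest tested members had 104 to 344 reads in all, which limits their fold changes.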
